A study of Arabidopsis thaliana with 4 samples.

Results

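Local chromatin contacts, those inside a 100 kb stretch of a chromosome and between stretches up to 400 kb apart, were compared between Arabidopsis endosperm and leaf. The members are all pairs of 100 kb bins on the same chromosome that lie 0 to 4 bins apart, the pair of a bin with itself included. They were chosen by position alone and number 5915 of the 712221 possible pairs of bins. A contact value was present for 5741 of them in endosperm and for 5735 in leaf, and the 5723 pairs between bins with signal in both tissues were used.

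Contacts were measured by a modified in situ Hi-C, in which crosslinked chromatin is cut, religated and sequenced so that each product joins DNA that lay close together. The endosperm was F1 endosperm of Columbia-0 (Col_wt x Col_wt), and its developmental stage is not given in the labels. The leaves came from plants of the same ecotype and cross (Col_wt x Col_wt) at an age of 4 weeks. Neither tissue was treated, and each had 2 replicates, whose contacts were deposited together as 1 matrix per tissue. Contacts are averaged over all nuclei and all chromosome copies of a tissue, so a change in some nuclei cannot be told apart from a smaller change in all.

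Endosperm is the seed tissue that feeds the embryo. It arises from a second fertilisation and carries more maternal than paternal genomes, and in Arabidopsis it passes through a syncytial phase before it forms cells. Chromosome arms in Arabidopsis are gene-rich, while pericentromeres, the flanks of the centromeres, are rich in transposons, poor in genes and packed as heterochromatin that forms chromocentres in leaf nuclei. In a Hi-C map a compact stretch of fibre shows a larger part of its contacts near the diagonal.

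The matrices held 25033672 contacts in endosperm and 18557893 in leaf, of which 4828827 (19.3%) and 3764668 (20.3%) were local. The median pair held 2716 contacts inside a bin in endosperm and 2302.5 in leaf. At 4 bins the median was 147 contacts in endosperm and 70 in leaf. Signal in both tissues was present in 1168 bins and missing from 25, and of the 1168 bins 197 were pericentromeric and 971 lay in arms. Each bin's share is its balanced signal at a given distance as a percent of its whole balanced total, contacts with other chromosomes included. Intervals are 95% counting intervals and cover counting error only. With 1 pooled matrix per tissue no replicate spread exists, so no difference here could be set against one.

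As a mean over all bins, endosperm had a smaller share of contacts inside a 100 kb bin and a larger share at 1 to 4 bins. The within-bin share averaged 7.96% in endosperm and 9.30% in leaf, so that endosperm lay 1.33 percentage points lower (difference -1.33, -1.35 to -1.32). It was lower in endosperm in 1119 of 1168 bins. The share at 1 to 4 bins went the other way, with 6.20% in endosperm and 4.58% in leaf, which is 1.62 points (interval 1.6 to 1.64) or 1.35-fold more. It was higher in endosperm in 1042 bins and lower in 125. The sum over 0 to 4 bins averaged 14.2% in endosperm and 13.9% in leaf, a mean over opposite differences. In arms it was 13.9% in endosperm and 12.9% in leaf, and in pericentromeres it was 15.7% in endosperm and 18.7% in leaf, lower in endosperm in 195 of 197 bins. The sign of the small mean difference in this sum depends on how contacts are counted. In a mean over bins, a contact between 2 bins enters for both, and a within-bin contact enters once. Counted once each, without balancing, the local part was 19.3% of contacts in endosperm and 20.3% in leaf, the opposite order.

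The 2 measures moved in opposite directions in most arm bins, but not in most pericentromeric bins. In 993 of 1168 bins the within-bin share was lower and the share at 1 to 4 bins higher in endosperm. Of these, 916 were among the 971 arm bins and 77 among the 197 pericentromeric bins. Both were lower in 125 bins, 119 of them pericentromeric. Both were higher in 49, all in arms, and the remaining combination did not occur. Against the mean contact between chromosomes, a bin's contact with itself was 123-fold in endosperm and 139-fold in leaf. Its contact with the next bin was 22.8-fold in endosperm and 17.2-fold in leaf. Contact inside a bin was thus 5.40 times that with the next bin in endosperm and 8.05 times in leaf.

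Bins were also counted where endosperm was at least 25% higher or at least 20% lower than leaf, the same fold in either direction. The share at 1 to 4 bins was at least 25% higher in endosperm in 864 of 1167 bins (74%) and at least 20% lower in 14 (1.2%). For the within-bin share the counts were 1 of 1168 bins higher (0.0856%) and 230 lower (19.7%). Arms and pericentromeres divided these counts unequally. Arms held 860 of the 864 bins with a higher share at 1 to 4 bins, which is 860 of 971 arm bins against 4 of 197 pericentromeric bins. Pericentromeres held 159 of the 230 bins with a lower within-bin share, against 71 in arms. These counts use shares of a bin's whole total. Taken of contacts within the chromosome, the within-bin share was lower by any amount in 197 of 197 pericentromeric and 969 of 971 arm bins.

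**Figure D1:**
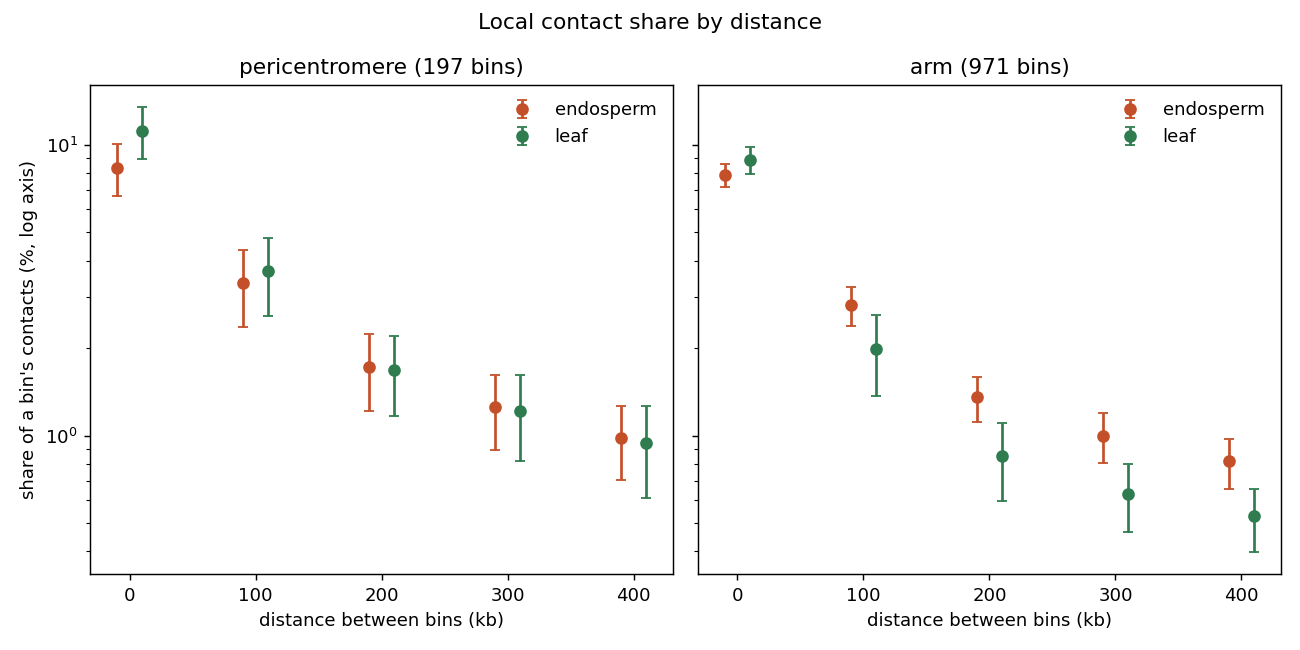
Mean share of a bin's balanced contacts (percent, log axis) against the distance between bins (kb), for pericentromeric bins on the left and arm bins on the right. Points are means over bins and bars are the SD over bins, with endosperm left of leaf at each distance. In arms endosperm lies below leaf at 0 kb (7.88% and 8.91%) and above it from 100 to 400 kb, while in pericentromeres the points from 200 to 400 kb nearly coincide.

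In chromosome arms the gain of endosperm was present at each distance beyond the bin itself. The within-bin share was 7.88% ± 0.73 in endosperm and 8.91% ± 0.93 in leaf (SD over 971 bins), a difference of -1.02 points (-1.04 to -1.01). The share at 1 to 4 bins was 5.98% ± 0.82 in endosperm and 3.99% ± 1.05 in leaf, a difference of 1.99 points (1.97 to 2.00). It was higher in endosperm in 965 of 971 arm bins. Step by step, the share was 2.81% in endosperm and 1.98% in leaf at 1 bin, 1.42-fold more. The excess was 1.6-fold at 2 bins (1.35% and 0.848%), 1.58-fold at 3 bins (0.999% and 0.631%) and 1.55-fold at 4 bins (0.814% and 0.527%).

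The 5 chromosomes gave close values in their arms. The share at 1 to 4 bins in arms was 5.81% in endosperm and 3.87% in leaf on chromosome 1, and 6.13% and 3.95% on chromosome 2. It was 5.92% in endosperm and 4.00% in leaf on chromosome 3, and 6.35% and 4.40% on chromosome 4. On chromosome 5 it was 5.86% in endosperm and 3.87% in leaf. The ratio of endosperm to leaf lay between 1.44 on chromosome 4 and 1.55 on chromosome 2. The within-bin share was lower in endosperm by 0.953 to 1.18 points on the 5 chromosomes. The chromosomes are parts of the same 2 matrices and are not replicates.

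In pericentromeres the difference between the tissues lay mainly in the within-bin share. It was 8.37% ± 1.71 in endosperm and 11.2% ± 2.29 in leaf (SD over 197 bins), a difference of -2.85 points (-2.89 to -2.80), and it was lower in endosperm in 197 of 197 bins. By chromosome it was 8.76% in endosperm and 11.7% in leaf on chromosome 1, 8.30% and 10.9% on chromosome 2, and 7.94% and 10.7% on chromosome 3. On chromosome 4 it was 8.70% in endosperm and 12.0% in leaf, and on chromosome 5 it was 8.43% and 11.4%. The fall was largest on chromosome 4, at -3.28 points, and smallest on chromosome 2, at -2.55 points.

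The share of pericentromeric bins at 1 to 4 bins was nearly the same in both tissues, at 7.32% ± 1.78 in endosperm and 7.51% ± 1.74 in leaf. The difference of -0.19 points (-0.24 to -0.14) was made at 1 bin, where endosperm had 3.35% and leaf 3.68%. At 2, 3 and 4 bins endosperm was higher by 0.04, 0.04 and 0.05 points. On chromosome 2 the interval of the difference at 1 to 4 bins spanned 0 (0.037 points, -0.061 to 0.135), and on the other chromosomes the difference lay between -0.337 and -0.187 points. The sign depends on what the share is taken of: as a share of contacts within the chromosome, the pericentromeric value at 1 to 4 bins was 18.5% in endosperm and 18.1% in leaf, higher in endosperm by 0.444 points. The within-bin share stayed lower in endosperm on that basis, with 21.2% in endosperm and 26.9% in leaf, a difference of -5.72 points. In arms it was then 19.8% in endosperm and 24.2% in leaf, a difference of -4.40 points.

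**Figure D2:**
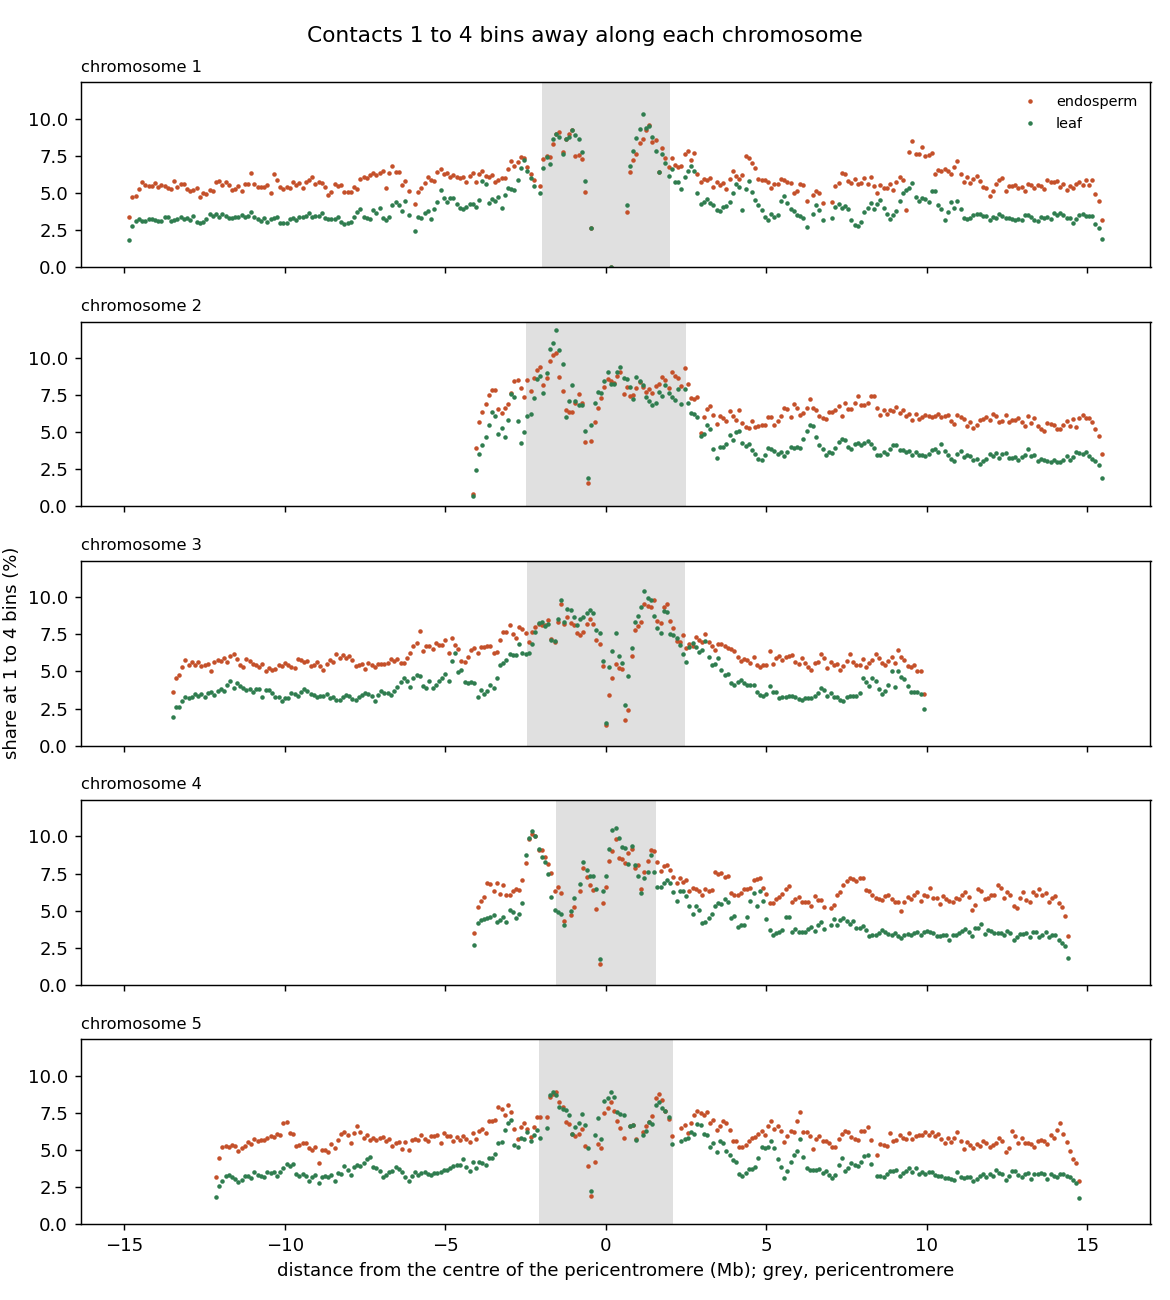
Share of each bin's contacts at 1 to 4 bins (percent) along chromosomes 1 to 5, against distance from the centre of the pericentromere (Mb), with the pericentromere in grey. Each point is a 100 kb bin, in endosperm or in leaf. Endosperm lies above leaf through the arms, where their means are 5.98% and 3.99%, and the tissues overlap inside the pericentromeres.

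As a share of a bin's whole total, the contrast between pericentromere and arm was much smaller in endosperm. At 1 to 4 bins pericentromeric bins exceeded arm bins by 1.34 points in endosperm (1.31 to 1.38) and by 3.52 points in leaf (3.48 to 3.56). As a ratio this was 1.22-fold in endosperm and 1.88-fold in leaf. For the within-bin share the excess was 0.482 points in endosperm and 2.3 points in leaf. The endosperm contrast was the smaller of the tissues on each of the 5 chromosomes in both measures. On chromosome 3 the within-bin contrast of endosperm was 0.0095 points, with an interval that spanned 0 (-0.043 to 0.062), against 1.77 points in leaf. As a ratio over all chromosomes, the within-bin contrast was 1.06-fold in endosperm and 1.26-fold in leaf. Taken of contacts within the chromosome, it was closer between the tissues in proportion. Pericentromeres then had 21.2% and arms 19.8% in endosperm, and 26.9% and 24.2% in leaf.

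**Figure D3:**
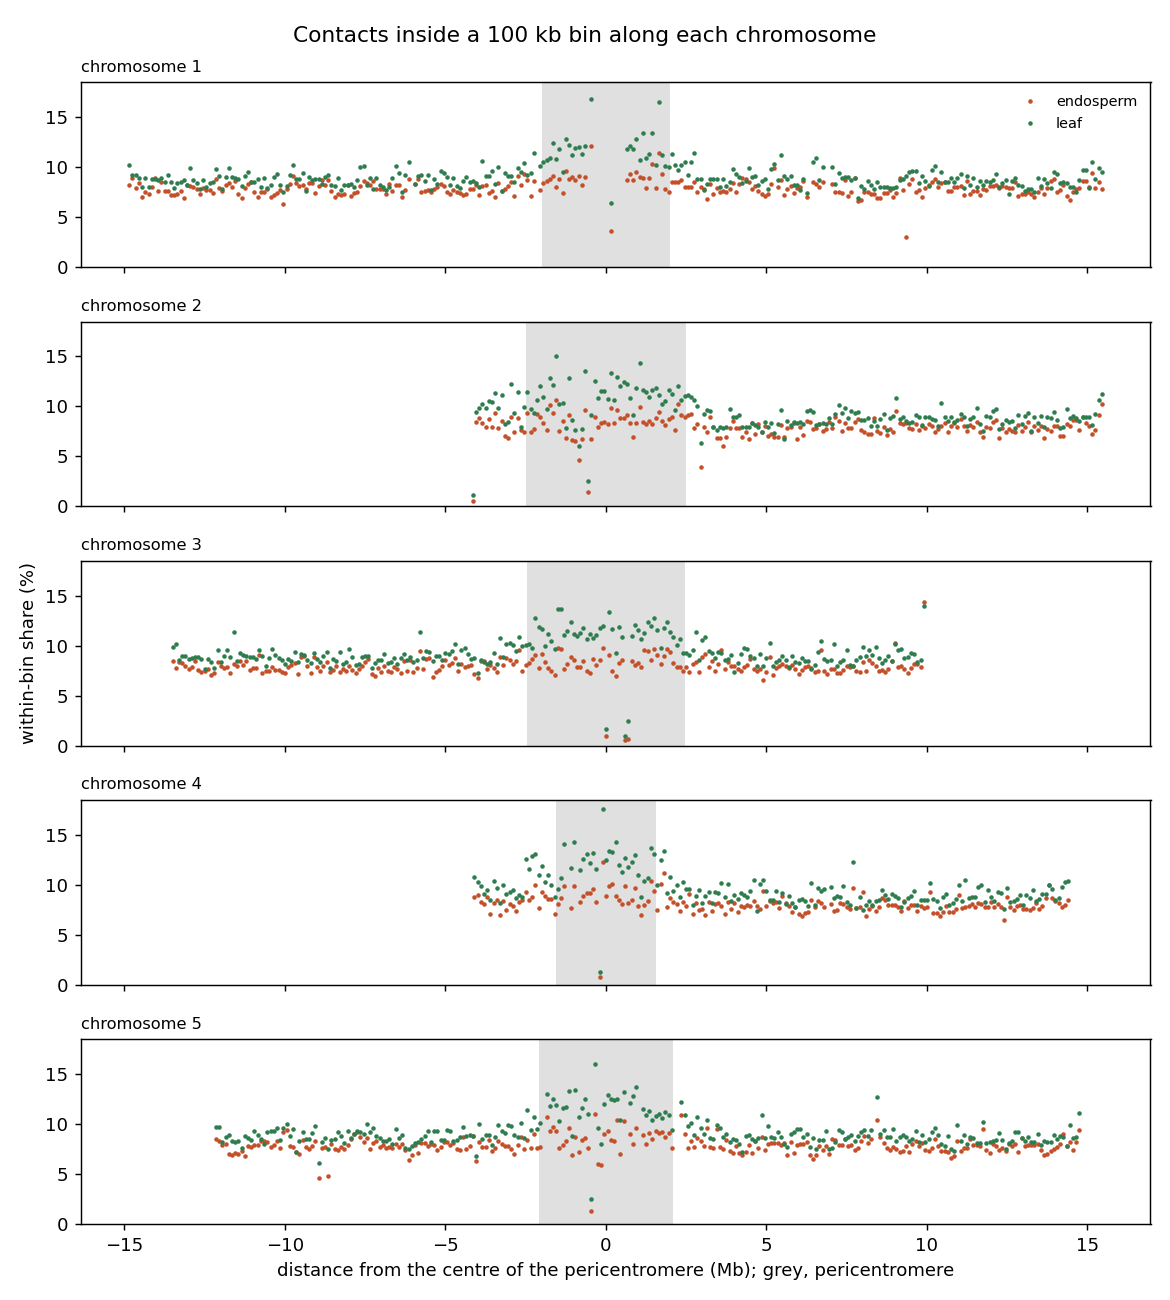
Share of each bin's contacts that fall inside the bin itself (percent) along chromosomes 1 to 5, against distance from the centre of the pericentromere (Mb), with the pericentromere in grey. Each point is a 100 kb bin, in endosperm or in leaf. Leaf rises inside the pericentromere to a mean of 11.2%, against 8.91% in arms, while the endosperm means are 8.37% and 7.88%.

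The gain of endosperm grew with distance from the pericentromere. In arm bins over 5 Mb from its edge the share at 1 to 4 bins was 5.70% in endosperm and 3.50% in leaf, 1.63-fold more. Between 2 and 5 Mb the ratio was 1.5 (5.96% and 3.97%), between 1 and 2 Mb it was 1.38 (6.28% and 4.55%), and within 1 Mb it was 1.17 (7.22% and 6.19%). In the 5 outermost bins on each side of the pericentromeres, 48 bins in all, the share was 7.76% in endosperm and 7.14% in leaf, a difference of 0.62 points. In the 149 inner bins the order was turned, with 7.18% in endosperm and 7.63% in leaf, a difference of -0.45 points (-0.51 to -0.40). Leaf therefore fell across these classes by more than endosperm did.

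**Figure D4:**
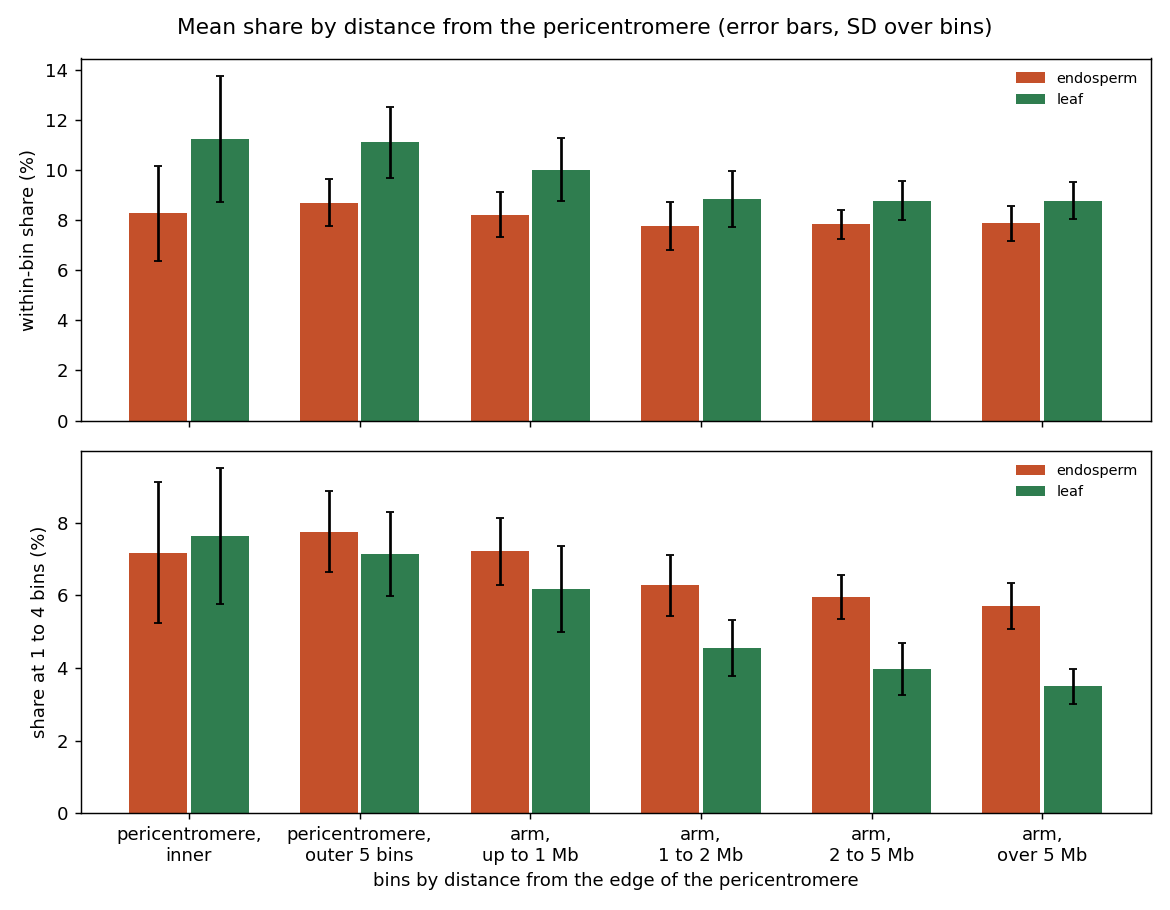
Mean within-bin share (top) and mean share at 1 to 4 bins (bottom), in percent, for 6 classes of bins by their distance from the edge of the pericentromere. Bars are means and error bars the SD over bins, with endosperm left of leaf. At 1 to 4 bins leaf falls to 3.50% over 5 Mb from the pericentromere and endosperm to 5.70%.

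At the outer edge of the pericentromeres the difference depended on distance. In the 48 outer bins the share at 1 bin was lower in endosperm, with 3.54% against 3.91% in leaf, while the share at 4 bins was 1.06% in endosperm and 0.739% in leaf, 1.43-fold more and higher in 48 of 48 bins. Contact between such bins fell with distance from 100 to 400 kb with an exponent of -0.870 in endosperm and -1.26 in leaf. The difference was 0.388 (0.335 to 0.441), with an interval for counting error only. Both bins of a pair had to be outer bins, so fewer pairs entered at longer distances. At 400 kb a pair could only join the outermost and the innermost outer bin of a side. Distance and position are therefore mixed in these exponents, and the part of position was not tested. In the inner bins the exponents were -0.886 in endosperm and -0.884 in leaf, and the interval of their difference spanned 0 (-0.017 to 0.014). In arms they were -0.889 in endosperm and -0.956 in leaf.

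Over all bins the exponent was -0.884 in endosperm and -0.960 in leaf, a difference of 0.0755 (0.0695 to 0.0815), so that contact fell less steeply in endosperm between 100 and 400 kb. In the matrices of 200 kb bins, which give 2 distances up to 400 kb, the difference had the opposite sign (-0.050), and from counts without balancing it was 0.034. Across arms the exponent of endosperm stayed between -0.901 and -0.870 in the 4 classes by distance from the pericentromere. That of leaf was -1.07 within 1 Mb and -0.919 over 5 Mb away. Here too both bins of a pair had to lie in the same class, so distance and position are mixed, and the part of position was not tested.

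Variation between bins was larger than counting error in both tissues. In arms the share at 1 to 4 bins had an SD over bins of 0.818 points in endosperm and 1.05 in leaf, against a median counting SD per bin of 0.129 and 0.119. Bins that were high in endosperm tended to be high in leaf. Over the 971 arm bins Pearson's r between the tissues was 0.807 for the share at 1 to 4 bins and 0.691 for the within-bin share. Over the 197 pericentromeric bins it was 0.892 and 0.934. Neighbouring bins share pairs, and both tissues share a reference sequence, so these are descriptions.

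**Figure D5:**
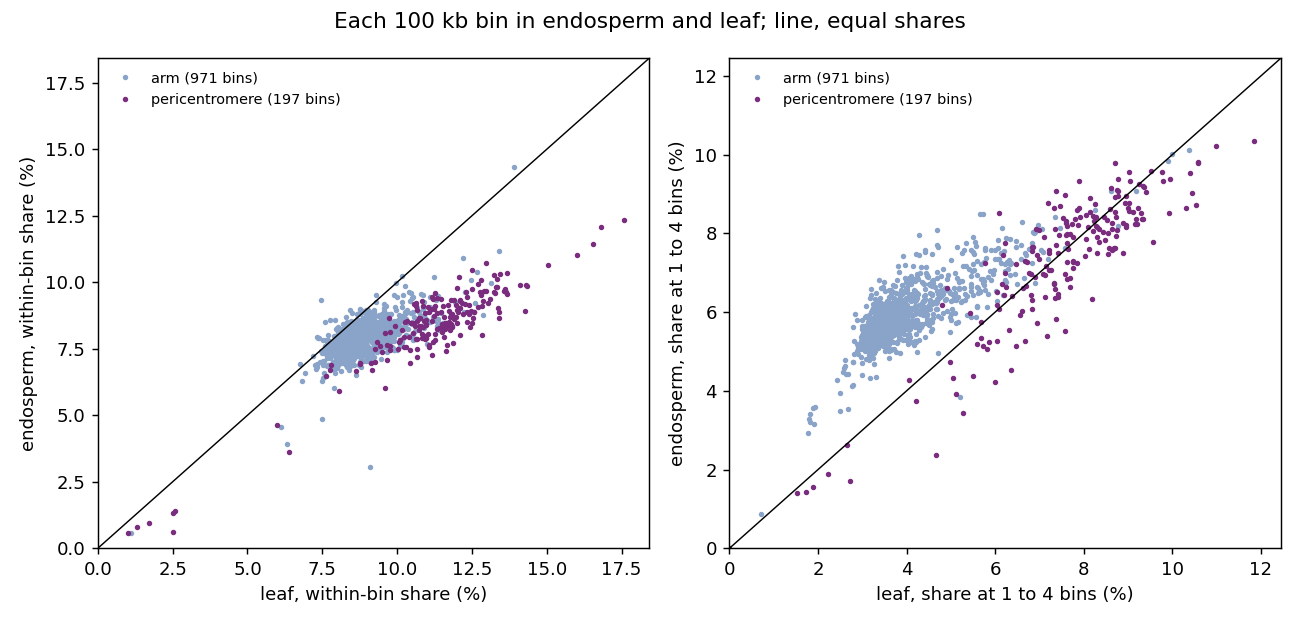
Endosperm share against leaf share (percent) for each 100 kb bin, within the bin on the left and at 1 to 4 bins on the right, with a line at equal shares. Arm bins (971) and pericentromeric bins (197) are coloured separately. At 1 to 4 bins 965 arm bins lie above the line, and within the bin 197 of 197 pericentromeric bins lie below it.

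Gene cover, the percent of a bin inside annotated protein-coding genes, was related to the share at 1 to 4 bins in arms. Pearson's r was -0.506 in endosperm and -0.617 in leaf over 971 arm bins. With the within-bin share it was -0.057 in endosperm and -0.354 in leaf. The least gene-covered 324 arm bins had 6.42% in endosperm and 4.67% in leaf, a ratio of 1.38. The most gene-covered 324 had 5.64% in endosperm and 3.52% in leaf, a ratio of 1.6. Gene cover also rises with distance from the pericentromere, with means of 42.2% within 1 Mb and 68.1% over 5 Mb, so the 2 orders cannot be told apart here. The number of contacts per bin moved with the shares too: r with the within-bin share in arms was -0.471 in endosperm and -0.545 in leaf. Its part in the differences was not tested beyond the shares from counts without balancing and the removal of bins of unusual coverage, under which arm means at 1 to 4 bins were higher in endosperm by 1.85 and 2.00 points.

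As a mean over 50 bins, the chromosome ends had a ratio like that of arm bins over 5 Mb from the pericentromere. Single ends differed, and not all are distal. The first used bin of chromosome 2 lies 1 to 2 Mb from the pericentromere. Its within-bin share was only 0.568% in endosperm and 1.12% in leaf. Outermost bins lack neighbours on one side, so their shares were scaled to 2 neighbours at each distance. Scaled this way, the share at 1 to 4 bins over the 50 end bins was 6.05% in endosperm and 3.74% in leaf, 1.62-fold more and higher in 50 of 50 bins. The ratio was largest at the south end of chromosome 4 (6.16% in endosperm and 3.42% in leaf, 1.80-fold) and smallest at its north end (6.79% and 5.05%, 1.35-fold). In this accession ribosomal RNA gene arrays sit at the north tips of chromosomes 2 and 4. The within-bin share was lower in endosperm at 10 of 10 ends, by 0.605 points at the south end of chromosome 3 and by up to 1.36 points at the south end of chromosome 4.

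The heterochromatic knob of chromosome 4, a transposon-rich block inside the short arm at 1.6 to 2.3 Mb, lies within 1 Mb of the pericentromere. Its 7 bins had a within-bin share of 8.90% in endosperm and 11.9% in leaf, lower in endosperm in 7 of 7 bins. Their share at 1 to 4 bins was 9.28% in endosperm and 9.30% in leaf, a difference of -0.02 points (-0.29 to 0.24). Gene cover of these bins averaged 14.7%, close to the pericentromeric mean of 13.7% and far from the arm mean of 63.1%. The 97 arm bins within 1 Mb of a pericentromere, the knob among them, had a share at 1 to 4 bins higher in endosperm by 1.03 points and a within-bin share lower by 1.80 points (difference -1.80), against -3.01 points within the bin for the knob alone.

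Of the 6 arm bins whose share at 1 to 4 bins was lower in endosperm, 4 belong to the knob. Another, at 16.2 Mb of chromosome 3, lies 0.3 Mb from the pericentromere and had 6.75% in endosperm and 6.91% in leaf. The remaining bin is at 24.2 Mb of chromosome 1 (chr1:24200001-24300000), with 3.84% in endosperm and 5.20% in leaf. Its within-bin share was 3.04% in endosperm and 9.10% in leaf, the largest fall of any bin with all neighbours used. The bin held 2.06 times the median count of contacts in endosperm and 1.07 times in leaf. Balancing divides such an excess out of every pair of the bin, and its part in the result was not tested.

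Extreme bins were sought among the 1037 bins whose 8 neighbours were all used. Their highest local shares lay mostly in pericentromeres in both tissues. The bin at 4.0 Mb of chromosome 4 had the highest within-bin share, with 12.3% in endosperm and 17.6% in leaf, and its gene cover was only 2.94%. The bin at 16.5 Mb of chromosome 1 followed in both tissues, with 11.4% in endosperm and 16.5% in leaf. The third in endosperm was an arm bin at 5.9 Mb of chromosome 4, with 11.2% in endosperm and 13.4% in leaf. The highest share at 1 to 4 bins was at 2.6 Mb of chromosome 2, with 10.4% in endosperm and 11.9% in leaf. Next came its neighbour at 2.5 Mb, with 10.2% in endosperm and 11.0% in leaf. The third in endosperm was the knob bin at 1.8 Mb of chromosome 4, with 10.1% in endosperm and 10.4% in leaf. The first and second bins of either measure were the same in both tissues, and each of these bins had the lower value in endosperm. Among bins with a missing neighbour, the last used bin at the south end of chromosome 3 was picked out after its values were seen. In endosperm it had the highest within-bin share of all used bins, at 14.3%. In leaf it had 13.9%, below the 17.6% of the bin at 4.0 Mb of chromosome 4.

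Among the same 1037 bins the largest gains at 1 to 4 bins lay in arms. The bin at 1.5 Mb of chromosome 2 had 7.97% in endosperm and 4.29% in leaf, 1.86-fold more. It adjoins a place where the leaf map loses contact with the neighbouring bins and gains it with chromosome 1, described with the boundaries, and the part of that place in the difference was not tested. The bin at 12.5 Mb of chromosome 2 had 7.43% in endosperm and 3.92% in leaf, and that at 26.3 Mb of chromosome 5 had 6.81% and 3.39%. On chromosome 1 the bin at 24.7 Mb had 8.08% in endosperm and 4.69% in leaf, and the bin at 25.4 Mb had 6.58% and 3.20%, which at 2.06-fold was the highest ratio of the 5. The largest within-bin rise was at 12.1 Mb of chromosome 4, with 9.32% in endosperm and 7.45% in leaf. That bin was the only used bin at least 25% higher within the bin, and its share at 1 to 4 bins was also higher, with 7.20% in endosperm and 3.96% in leaf.

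The 5 largest falls at 1 to 4 bins among the 1037 bins were pericentromeric. The bin at 14.2 Mb of chromosome 3 had 2.38% in endosperm and 4.67% in leaf, and a within-bin share of only 0.625% in endosperm and 2.52% in leaf. That bin held 6.72 times the median count of contacts in endosperm and 3.37 times in leaf. The part of this excess in its low shares and in the fall was not tested. The bin at 13.8 Mb had 5.53% in endosperm and 7.58% in leaf, and the bin at 13.6 Mb had 3.44% and 5.29%. On chromosome 2 the bin at 3.1 Mb had 6.34% in endosperm and 8.20% in leaf. The bin at 2.7 Mb had 8.72% in endosperm and 10.5% in leaf.

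Contact across each boundary between adjacent bins was measured as the mean of the 10 pairs up to 4 bins apart that span it, over the median of its chromosome. In leaf the lowest boundary on chromosome 1 was at 22.7 Mb, with 0.959 in endosperm and 0.490 in leaf. On chromosome 2 it was at 1.5 Mb, with 1.24 in endosperm and 0.505 in leaf, beside the bin with the largest gain. The leaf map joins these places: the bins just above both boundaries contacted each other at 0.920 times the interchromosomal mean in endosperm and at 16.9 times in leaf (21 and 321 contacts). Whether the leaf DNA was rearranged there was not tested. Without chromosomes 1 and 2 the share at 1 to 4 bins was higher in endosperm by 1.57 points.

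The lowest boundaries of endosperm were pericentromeric on 4 of 5 chromosomes. On chromosomes 3 and 5 the same boundaries were also the lowest of leaf, while on chromosome 4 that of leaf lay in an arm, at 14.8 Mb. At 3.6 Mb of chromosome 2 the value was 0.273 in endosperm and 0.690 in leaf, and at 13.5 Mb of chromosome 3 it was 0.313 and 0.600. At 4.0 Mb of chromosome 4 it was 0.403 in endosperm and 0.861 in leaf, and at 11.7 Mb of chromosome 5 it was 0.325 and 0.715. These values are relative to each tissue's own chromosome median, so they place a boundary within its tissue's map. The bin just above the boundary at 3.6 Mb of chromosome 2 also had unusual shares. Its within-bin share was 1.41% in endosperm and 2.58% in leaf, the lowest in the pericentromere of that chromosome. The part of such bins, and of their coverage, in these low boundaries was not tested. On chromosome 1, where 16 bins were not used, most of them pericentromeric, the lowest boundary of endosperm was at 6.3 Mb (0.814 in endosperm and 0.885 in leaf).

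Bins that hold genes of known roles in seed or leaf were set beside all 971 arm bins, whose median ratio of endosperm to leaf at 1 to 4 bins was 1.58, with 860 at least 25% higher. Lists of genes were compared by count and median only. Storage genes, which encode the cruciferins, albumins and oleosins laid down in seeds, lay in 7 arm bins, all 7 at least 25% higher in endosperm, with a median ratio of 1.73. The bin of SESA1 to SESA4, a cluster of albumin genes on chromosome 4, had 5.76% in endosperm and 3.34% in leaf. The bin of CRA1, a cruciferin gene, had 5.54% in endosperm and 3.12% in leaf, and it was the only storage bin whose within-bin share was not lower in endosperm (8.15% and 8.01%).

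Photosynthesis genes, expressed in green tissue, lay in 9 arm bins. All 9 were at least 25% higher in endosperm, with a median ratio of 1.55. The bin of RBCS1A, a Rubisco small subunit gene, had 7.66% in endosperm and 5.14% in leaf. The bin of the clustered chlorophyll-binding protein genes LHCB1.1, LHCB1.2 and LHCB1.3 had 6.09% in endosperm and 3.91% in leaf. LHCB2.1 and NPQ4 lie in bins classed as pericentromeric, where the shares were 7.75% in endosperm and 6.21% in leaf for LHCB2.1, and 6.72% and 6.15% for NPQ4. The gain thus appeared in bins of seed genes and of leaf genes alike, as in arm bins at large.

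Endosperm regulators lay in 8 arm bins, of which 7 were at least 25% higher, with a median ratio of 1.47. The bin of AGL62, a MADS-box gene that holds back endosperm cellularisation, had 5.46% in endosperm and 3.67% in leaf. The bin of FIE, a Polycomb gene, had 5.57% in endosperm and 4.58% in leaf, the smallest ratio of the list at 1.22. Maternally expressed imprinted genes lay in 5 bins, all 5 at least 25% higher, with a median ratio of 1.72. The bin of MEA, a Polycomb gene, had 5.56% in endosperm and 3.12% in leaf, and that of FIS2 had 5.79% and 3.22%.

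Paternally expressed imprinted genes lay in 7 arm bins with a median ratio of 1.29. The share at 1 to 4 bins was at least 25% higher in 5 of these bins. The exception in direction was the bin of PHE1, a MADS-box gene, which is the bin of doubled coverage at 24.2 Mb of chromosome 1 described above. The bins of YUC10 (5.86% in endosperm and 4.60% in leaf) and VIM5 (5.16% and 4.16%) had ratios of 1.28 and 1.24. The bins of HDG3 and SUVH7 had ratios of 1.67 and 1.65. The bins of YUC10 and PEG2 lie 1 to 2 Mb from the pericentromere, where the ratio over arm bins was 1.38. That of SDC, a maternally expressed gene, lies within 1 Mb of it and had a ratio of 1.71. The part of position in the medians of the lists was not tested. A 100 kb bin in an arm holds many genes, so these values belong to the bins and not to the genes.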

How the data were processed

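Deposited values were balanced contact signal: the authors gave a 100 kb and a 200 kb matrix for each tissue (4 in all), both pooled from replicates 1 and 2. Per the submitters' processing notes, HiC-Pro 2.9.0 was run with Bowtie2 against TAIR10. Not given in the sources used here are the enzyme, the balancing settings and the read filters, which bear on contacts inside a bin. Bin totals in the iteratively corrected signal lay between 39632.0 and 39637.0 in endosperm and between 29020.5 and 29022.8 in leaf.

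Balanced values are counts divided by 1 factor per bin, and whole counts were recovered for 100% of pairs within 0.01. Recovery, shares and counting errors were tested on simulated data. Bins with signal in both tissues were used (25 were not, 15 of them pericentromeric). 1 used bin had no used neighbour and counted as 0 at 1 to 4 bins. A bin's contact with itself entered its total once. Intervals are the value ± 1.96 SD of Poisson counts, with factors and totals kept. The decay exponent was the slope of log mean contact on log distance over 1 to 4 bins. A bin was counted as different at a ratio of at least 1.25 in either direction.

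Named regions were the pericentromeres, the 5 outermost bins at each end, the knob, the 3 highest bins per measure and tissue, the 5 largest rises and falls among 1037 bins with all 8 neighbours used, the lowest boundary per chromosome and tissue, and the members of 5 gene lists. Regions and lists were chosen with earlier results of these data known. Gene names, gene cover and the bin of each gene came from a RefSeq gene table of assembly TAIR10.1, in which all members matched by locus. Scripts used python 3.11.15, numpy 2.4.6 and pandas 2.3.3.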

Additional observations from a re-analysis of the deposited data

How the results depend on the processing

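The 6 main differences were recomputed under 41 combinations of result and alternative. 40 kept their direction, 15 of them moving by less than the counting error or, for the count of bins, by less than 1.5 times. The exception was the decay exponent, whose difference was -0.050 in the 200 kb matrices, where 2 distances remain; the cause was not tested. It was 0.034 without balancing and 0.057 on chromosomes 3, 4 and 5. The percent of bins with a higher share at 1 to 4 bins in endosperm (main value 89.2%) lay between 87.7% and 93.4%. From 89.2% a rise of 1.5 times is impossible, so that limit could only mark a fall.
The within-bin difference (main value -1.33 points) was -1.28 in bins with all 8 neighbours used, -1.38 on chromosomes 3, 4 and 5, -4.62 as a share of contacts within the chromosome, -1.03 for medians and -1.17 at 200 kb. The difference at 1 to 4 bins (main value 1.62 points) was 1.51 without balancing, 1.70 with all neighbours used, 1.64 without bins of unusual coverage, 1.57 on chromosomes 3, 4 and 5, 3.61 within the chromosome, 2.12 for medians and 1.40 at 200 kb.
For pericentromere minus arm, the within-bin difference (main value -1.82) was -1.41 without balancing, -1.92 without bins of unusual coverage, -1.90 on chromosomes 3, 4 and 5, -1.33 within the chromosome, -2.0 for medians and -2.23 at 200 kb. At 1 to 4 bins (main value -2.18) it was -1.99 without balancing, -2.25 with all neighbours used, -2.25 on chromosomes 3, 4 and 5, -3.81 within the chromosome and -1.77 at 200 kb.
The choice of total does not enter the decay exponent, so that alternative gave no value for it. Shares within the chromosome are taken of a smaller total, so their differences in points are on a larger scale than the main values. No paired analysis was possible because the replicates of each tissue are pooled in 1 matrix, and for the same reason no replicate could be left out.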
